A study of Sus scrofa with 12 samples.

Results

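The genes described here are those of the pathway through which LIM kinases control actin filaments: the LIM kinases LIMK1 and LIMK2, their substrates CFL1 and CFL2, the slingshot phosphatases SSH1, SSH2 and SSH3, and the upstream kinases ROCK1, ROCK2 and PAK1. They were chosen by symbol, through the table that pairs pig Ensembl gene identifiers with gene names. Of these 10 genes, 9 had a row with counts among the 25880 genes listed, and all 9 were among the 14262 genes tested. SSH2 was not analysed here, since its identifier had no row.

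The study sequenced RNA from the Semimembranosus muscle, a large muscle of the ham, of 12 purebred Italian Large White pigs with the same housing and diet. Pigs were picked from the ends of the distribution of intramuscular fat (IMF) in a tested population, avoiding siblings, so the groups differ by selection on a measured trait and not by a treatment. The high IMF group held pigs 1 to 6, aged 234 to 244 days, and the low IMF group held pigs 7 to 12, aged 229 to 249 days, with 3 pigs labelled female and 3 labelled male in each. The comparison asks which genes of this pathway differ with fat content.

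Actin filaments are taken apart by cofilins, which bind along the filament and cut it. LIM kinases stop this by phosphorylating cofilin on a serine next to its amino end, and slingshot phosphatases remove that phosphate and switch cofilin on again. The LIM kinases are themselves switched on by ROCK and PAK kinases, which phosphorylate a threonine in the activation loop. In skeletal muscle CFL2 is the muscle isoform of cofilin and takes part in keeping the length of sarcomeric thin filaments, while CFL1 is the form found in most cell types. These switches act on proteins, and the counts measure only the messenger RNA.

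Both phosphorylation sites can be read from the genome, and they are shown because they link the kinases to their substrates. All sequences are from RefSeq on Sscrofa11.1, read on the coding strand, 5′ to 3′. In both cofilins and in destrin (DSTN), the third member of the family, the first coding exon held only the start codon, and the second coding exon opened with the serine codon after 1 other codon, given in capitals. The stretches lie at chr2:6473539-6473574 (CFL1), chr7:65091414-65091449 (CFL2) and chr17:26043392-26043427 (DSTN), each on the plus strand.
CFL1: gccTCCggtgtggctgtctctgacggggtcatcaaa
CFL2: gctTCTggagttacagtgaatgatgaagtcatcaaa
DSTN: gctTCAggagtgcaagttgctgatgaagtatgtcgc
Of these 36 bases, 24 were the same in CFL1 and CFL2, and the serine codon was written differently in each of the 3 genes. Over the whole coding sequence, 351 of 501 bases were the same in CFL1 and CFL2.

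The activation loop of the LIM kinases lies at chr3:11275905-11275952 in LIMK1 and at chr14:48033099-48033146 in LIMK2, both on the plus strand, with the codon of the threonine that ROCK and PAK kinases phosphorylate in capitals.
LIMK1: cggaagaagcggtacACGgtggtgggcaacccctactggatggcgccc
LIMK2: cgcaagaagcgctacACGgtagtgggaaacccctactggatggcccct
The stretches shared 42 of 48 bases, the threonine codon included. RT-qPCR, not used here, was run by the study on RNA of the same pigs, for LIMK1 and other genes it listed as changed. The study reported that fold changes from both methods were correlated over these genes. Its primers for LIMK1 were located in the genome. The forward primer agagcactcccacactgtcc matched chr3:11263429-11263448 in exon 5 and the reverse primer gtgccattgatttccaggat matched the minus strand at chr3:11268458-11268477 in exon 6 of LIMK1, both in coding sequence.

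Each pig had a total of 131048805 to 178013997 counts. Of the pigs, 6 had counts of the Y chromosome genes KDM5D and EIF1AY that went against their labelled sex, 2 in the high and 4 in the low IMF group. The counts do not show whether samples or columns were exchanged, so the high and low IMF labels behind every fold change carry this doubt. The fold changes below were therefore also fitted without these 6 pigs, on 4 high and 2 low IMF pigs, by edgeR's test alone. The value is given where it changes what is said. DESeq2's Wald test and the permutation tests were not run on that smaller set. Levels per pig are TMM-normalized counts, that is, counts scaled to a common effective library size. Fold changes are low over high IMF on the log2 scale (log2FC) from edgeR's quasi-likelihood test, with p adjusted over all 14262 genes. At an adjusted p of at most 0.05, this test called 0.0% of all genes, and 10.4% had an unadjusted p of at most 0.05. DESeq2's Wald test, the tool of the study, called 101 of 13967 genes, or 0.723%.

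Compared per length, CFL2 was the most abundant of the 9 genes. Its level was 73.2 CPM (counts scaled to the effective library size) per kb of exon (median of the 12 pigs, range 59.0 to 98.9), beside 20.3 for CFL1 (13.9 to 38.4). LIMK1, at 15.8 (8.82 to 22.5), ROCK2, at 15.7 (13.5 to 24.2), and PAK1, at 10.1 (3.08 to 26.3), followed. The ranges of these 3 genes overlapped one another and that of CFL1, so their order cannot be read beyond the spread between pigs. ROCK1, at 4.33 CPM per kb (3.49 to 5.15), lay below the ranges of LIMK1 and ROCK2 and inside that of PAK1. The 3 least abundant genes were SSH1, at 1.17 (0.561 to 1.68), SSH3, at 1.02 (0.449 to 1.5), and LIMK2, at 0.785 (0.496 to 1.62), and their ranges overlapped as well. In the cofilins and the ROCK kinases 1 member held most of the level, and in SSH1 and SSH3 it was shared. CFL2 held between 72.0% and 81.0% of the level of both cofilins, and ROCK2 between 73.7% and 84.3% of that of both ROCK kinases. SSH1 held between 36.4% and 78.9% of the level of SSH1 and SSH3.

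**Figure D1:**
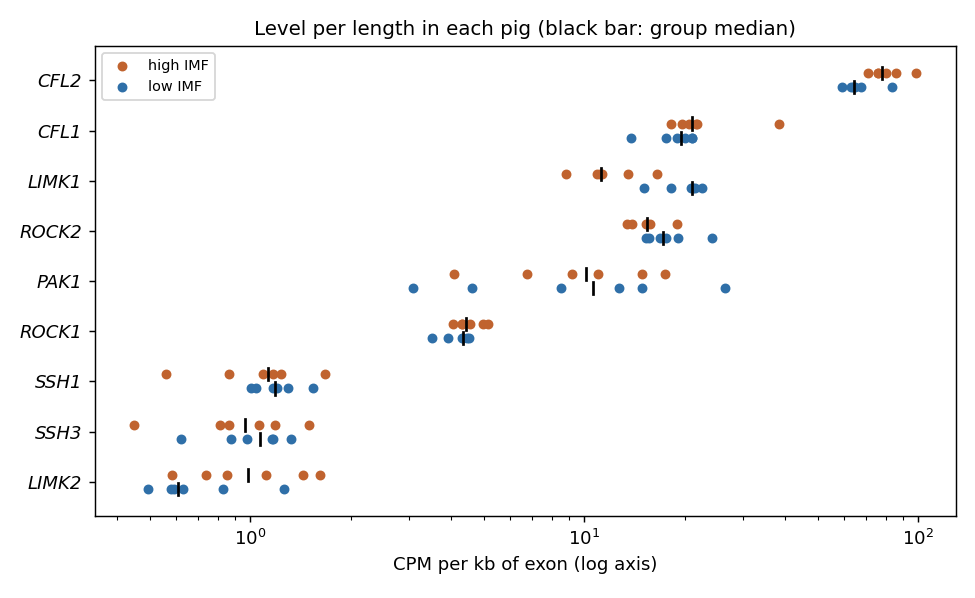
Level of each gene in CPM per kb of exon (log axis) in every pig, with high IMF pigs in orange, low IMF pigs in blue and the group median as a black bar. CFL2 stands above the other genes in all 12 pigs, and SSH1, SSH3 and LIMK2 share the lowest range, from 0.449 to 1.68.

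LIMK1 was the member with the widest separation of the groups. LIMK1 (ENSSSCG00000030378, chr3:11252820-11279286) had TMM-normalized counts of 4329 to 8131 (median 5512) in high IMF pigs and of 7416 to 11038 (median 10324) in low IMF pigs. Thus 5 of 6 low IMF pigs lay above every high IMF pig, and the groups overlapped only through pig 11, at 7416, and pig 1, at 8131. The level in low IMF pigs was 1.65 times that in high IMF pigs, a log2FC of 0.72 (standard error 0.15, 95% interval 0.40 to 1.05). With edgeR's quasi-likelihood test the unadjusted p was 0.000247, the 16th smallest of all genes, and the adjusted p was 0.190. In DESeq2's Wald test its adjusted p was 0.00283, and the exact permutation test, two-sided, gave a p of 0.00433, where 0.00216 is the smallest that 6 pigs against 6 allow. LIMK1 was listed by the study as changed in these same pigs, so these values are not independent evidence for it. Fewer cells of a type and less RNA per cell cannot be told apart in these whole muscle samples.

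The difference in LIMK1 was also present within each class of pigs formed by the Y chromosome counts, whatever the label said, with the classes set apart at the widest gap in those counts. Among the pigs with at least 3734 Y chromosome counts, the 3 high IMF pigs had between 4329 and 5463 TMM-normalized counts of LIMK1 and the 3 low IMF pigs between 7416 and 10535. Among the pigs with at most 6, the 3 high IMF pigs had between 5562 and 8131 and the 3 low IMF pigs between 8936 and 11038. The groups did not overlap in either class, which held, in a single direction, for 1 of the 9 members and for 1.7% of all genes. Pigs 1 and 11, the only pigs through which the groups overlapped in LIMK1, fall in different classes. The split thus takes that overlap away by itself and is no further evidence for LIMK1. It cannot tell whether the high and low IMF labels are right. Without the 6 pigs whose Y counts went against the label, LIMK1 had a log2FC of 0.42 (standard error 0.25), with an unadjusted p of 0.138 in edgeR's test. The 2 low IMF pigs that remain, 11 and 12, are those with the lowest LIMK1 of their group.

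LIMK2 (ENSSSCG00000010025, chr14:47983984-48039631), the other LIM kinase, had the opposite sign. It had TMM-normalized counts of 467 to 1292 (median 786) in high IMF pigs and of 396 to 1005 (median 486) in low IMF pigs. The groups overlapped over most of their range, although 5 of 6 low IMF pigs lay below the median of the high IMF pigs. The log2FC was -0.53 (standard error 0.28, 95% interval -1.15 to 0.09), with an adjusted p of 0.517 in edgeR's test. The spread of LIMK2 within a group was wide, wider than that of 74.4% of all genes. Without the 6 pigs whose Y counts went against the label, the log2FC of LIMK2 was -0.92 (standard error 0.36), with an unadjusted p of 0.0344 and an adjusted p of 0.998 in edgeR's test. Per length, LIMK1 made up between 90.4% and 95.1% of the level of both LIM kinases in high IMF pigs, with a median of 91.1%, and between 94.7% and 97.7% in low IMF pigs, with a median of 96.5%.

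**Figure D2:**
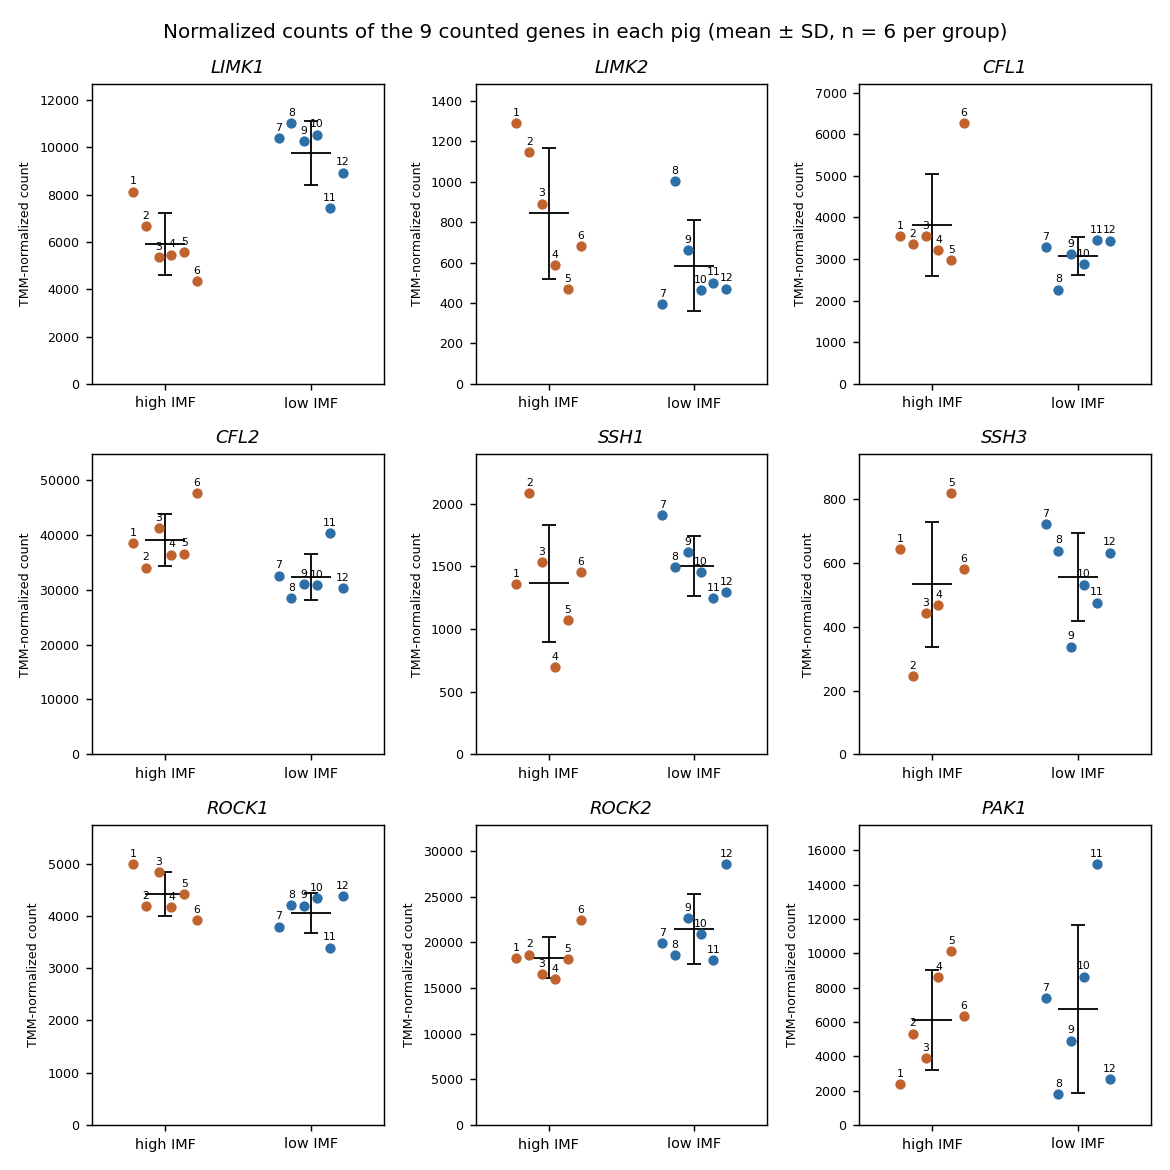
TMM-normalized counts of the 9 counted genes in each pig, numbered 1 to 12, on axes that start at 0, with the mean and SD of each group in black. In LIMK1 the low IMF pigs lie above the high IMF pigs except pig 11 (7416), below pig 1 (8131), while the groups overlap more widely in the other genes.

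Both cofilins had negative fold changes, and only CFL2 passed an unadjusted threshold. CFL2 (ENSSSCG00000001959, chr7:65090170-65094521) had TMM-normalized counts of 34009 to 47562 (median 37530) in high IMF pigs and of 28398 to 40330 (median 30933) in low IMF pigs. In 5 of 6 low IMF pigs CFL2 was below every high IMF pig, and pig 11 was the exception, as in LIMK1. The log2FC was -0.28 (standard error 0.11, 95% interval -0.52 to -0.03), which is 1.21 times as much in high IMF pigs. The unadjusted p was 0.0245 and the adjusted p 0.441 in edgeR's test, the adjusted p was 0.294 in DESeq2's Wald test, and the exact permutation test gave a p of 0.0238. Without the 6 pigs whose Y counts went against the label, the log2FC of CFL2 was -0.14 and its unadjusted p in edgeR's test 0.495.

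CFL1 (ENSSSCG00000012974, chr2:6471558-6475019) had TMM-normalized counts of 2977 to 6275 (median 3453) in high IMF pigs and of 2265 to 3451 (median 3197) in low IMF pigs. Pig 6 stood far above the other 11 pigs, which all had at most 3552. The log2FC was -0.31 (standard error 0.18, 95% interval -0.71 to 0.08), with an adjusted p of 0.549 in edgeR's test, and it was -0.12 without pig 6. CFL1 overlaps SNX32 on the other strand. The libraries kept the strand, but the strand option of the counting was not given in the sources used here, so reads of the overlap cannot be assigned with certainty. DSTN, which acts on actin like the cofilins, had a log2FC of 0.05 (standard error 0.26).

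The slingshot phosphatases, which act against the LIM kinases, did not separate the groups. SSH1 (ENSSSCG00000009943, chr14:41963946-42030842) had TMM-normalized counts of 696 to 2082 (median 1406) in high IMF pigs and of 1246 to 1910 (median 1472) in low IMF pigs. All low IMF pigs lay inside the range of the high IMF pigs. The log2FC was 0.14 (standard error 0.21, 95% interval -0.33 to 0.61), with an adjusted p of 0.857 in edgeR's test. SSH1 overlaps an uncharacterized gene on the other strand, with the same limit as in CFL1.

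SSH3 (ENSSSCG00000027956, chr2:5185480-5193875) had TMM-normalized counts of 244 to 819 (median 525) in high IMF pigs and of 338 to 721 (median 582) in low IMF pigs. Here too all low IMF pigs lay within the high IMF range. The log2FC was 0.06 (standard error 0.25, 95% interval -0.51 to 0.63), with an adjusted p of 0.960 in edgeR's test. The intervals of both genes reach past 0.58 in size on the upper side, the study's threshold of size, so these data do not bound a difference to below that size. Without the 6 pigs whose Y counts went against the label, the log2FC was -0.13 (standard error 0.38) for SSH1 and 0.20 (standard error 0.38) for SSH3.

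Of the upstream kinases, the ROCK kinases differed in sign and PAK1 varied most among pigs. ROCK1 (ENSSSCG00000021893, chr6:106163899-106314998) had TMM-normalized counts of 3922 to 5002 (median 4312) in high IMF pigs and of 3394 to 4382 (median 4203) in low IMF pigs. It was among the steadiest genes, with a spread within a group wider than that of only 5.97% of all genes. The log2FC was -0.13 (standard error 0.09, 95% interval -0.33 to 0.08), with an adjusted p of 0.657 in edgeR's test. With all pigs, that interval leaves out the threshold of 0.58 in either direction. Without the 6 pigs whose Y counts went against the label, the log2FC of ROCK1 was -0.15 (standard error 0.18). That standard error is larger than with all pigs, and no interval was computed for that fit. The bound is thus not shown to hold without those pigs.

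ROCK2 (ENSSSCG00000008629, chr3:125353063-125493368), the main ROCK kinase of these muscles by level, had TMM-normalized counts of 15947 to 22401 (median 18214) in high IMF pigs and of 18084 to 28606 (median 20404) in low IMF pigs. Of the low IMF pigs, 5 of 6 lay above the median of the high IMF pigs, and pig 12 was the highest of all. The log2FC was 0.23 (standard error 0.12, 95% interval -0.05 to 0.50), with an adjusted p of 0.542 in edgeR's test. ROCK2 overlaps an uncharacterized gene on the other strand as well.

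PAK1 (ENSSSCG00000014878, chr9:11830095-11973074), which phosphorylates LIM kinases below Rac and Cdc42, had TMM-normalized counts of 2358 to 10106 (median 5832) in high IMF pigs and of 1781 to 15213 (median 6141) in low IMF pigs. The highest pig, 11, had 8.54 times the count of the lowest, pig 8, and both were in the low IMF group. The spread within a group was wider than that of 91.9% of all genes. The log2FC was 0.15 (standard error 0.47, 95% interval -0.90 to 1.19), with an adjusted p of 0.940 in edgeR's test. The interval was the widest of the 9 members. Without the 6 pigs whose Y counts went against the label, the log2FC of PAK1 was 0.66 (standard error 0.68).

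**Figure D3:**
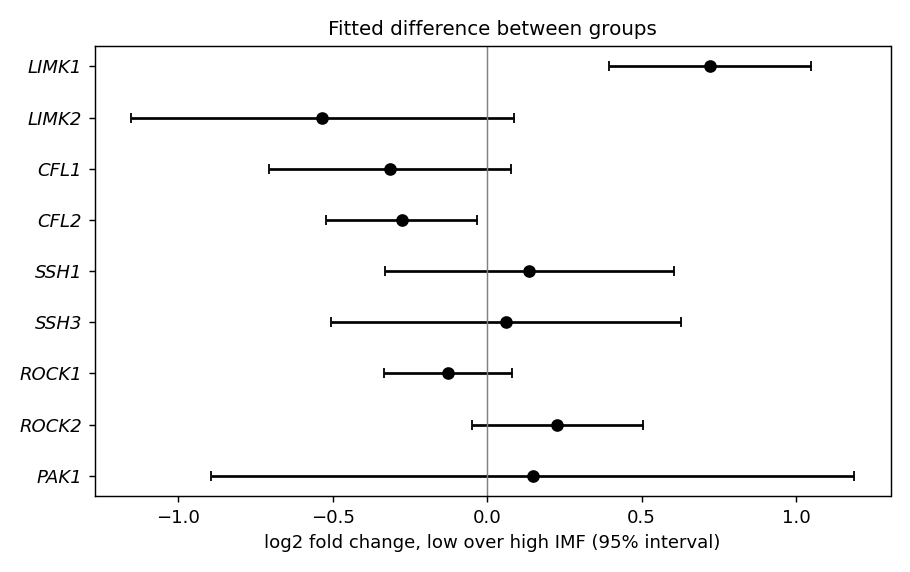
Log2 fold change, low over high IMF, of the 9 genes, with the 95% interval of the fit as bars. The interval of LIMK1 (0.40 to 1.05) lies above 0, that of CFL2 (-0.52 to -0.03) lies below 0, and the other 7 cross it.

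Across the 9 members, 2 had an unadjusted p of at most 0.05, LIMK1 higher and CFL2 lower in low IMF pigs, which is 22.2% beside 10.4% of all genes. In edgeR's test 0 members had an adjusted p of at most 0.05, beside 0.0% of all genes. In DESeq2's Wald test 1 member had one, LIMK1, beside 0.723% of all genes. The counts of the groups overlapped in all 9 members, while they did not in 0.659% of all genes. The median log2FC of the members was 0.06, beside -0.01 for all genes, with 5 members above 0 and 4 below.

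The ratio of LIMK1 to each of the other genes was compared within each pig, since such a ratio does not depend on the library size. The ratio of LIMK1 to LIMK2 was 2.38 times as high in low as in high IMF pigs, a difference of 1.25 on the log2 scale between a mean of 4.12 ± 0.45 (SD, n = 6) and one of 2.87 ± 0.42 (SD, n = 6), with an exact permutation p of 0.00433. Against its substrates LIMK1 was 2.02 times as high for both CFL1 and CFL2, with exact p of 0.00433 and 0.00649. Against ROCK1 it was 1.82 times as high, with an exact p of 0.00216, and the groups did not overlap. Each of these differences was larger than the SD within either group, but the groups overlapped in the ratios to LIMK2, CFL1 and CFL2.

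For the other upstream kinases and the phosphatases the differences in the ratio were smaller or more variable. The ratio to ROCK2 was 1.43 times as high in low IMF pigs, with an exact permutation p of 0.0303. The differences on the log2 scale were 0.54 for SSH1, 0.62 for SSH3 and 0.78 for PAK1, with exact p of 0.0671, 0.0996 and 0.260. After adjustment over the ratios of LIMK1 to all 14261 other genes, the same 5 of 8 ratios stayed of at most 0.05, with ROCK2 at 0.0459. The ratio carries LIMK1's own difference, and an exact p of at most 0.05 was found for 62.5% of the members beside 72.9% of all genes, with groups that did not overlap for 1 of 8 members beside 13.4% of all genes. The median difference over all genes was 0.75 on the log2 scale. The share of members was thus not above that of other genes, and the ratios give no result particular to these pairs.

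**Figure D4:**
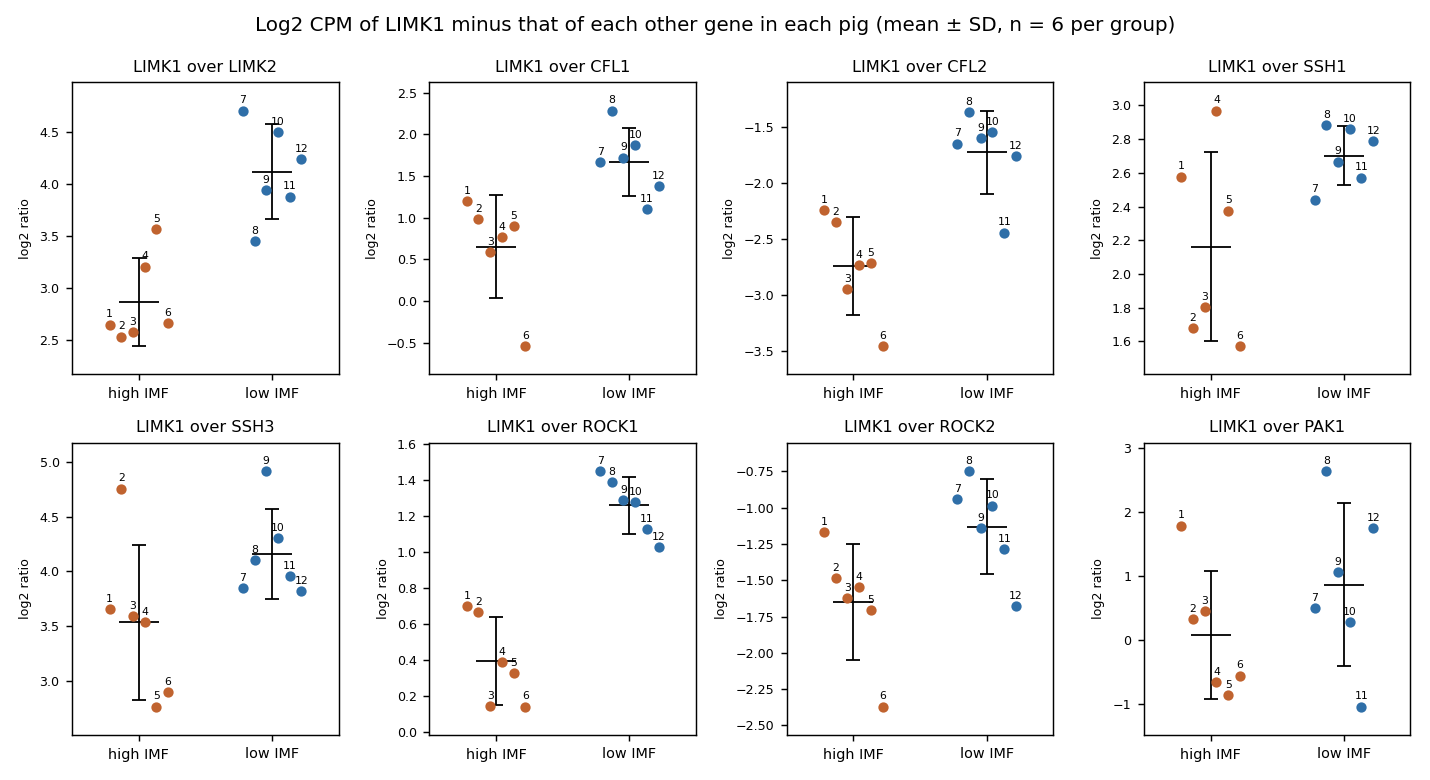
Log2 ratio of LIMK1 to each of the other 8 genes in every pig, numbered 1 to 12, with the mean and SD of each group (n = 6) in black. The groups are apart in the panel of ROCK1, touch or overlap slightly in those of LIMK2, CFL1 and CFL2, and overlap widely in that of PAK1.

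Within a group, LIMK1 was set against each of the other genes over 6 pigs, and 16 such relations were computed. Pearson's r ran from -0.849 to 0.687 and had the same sign in both groups for 7 of 8 genes. ROCK2 was among these, with an r of -0.315 in the high and only -0.00745 in the low IMF group. The share of all genes with the same sign in both groups is not given here, so the 7 of 8 is a description only. For ROCK1 r was 0.656 in the high and 0.671 in the low IMF group (rho 0.60 and 0.314), with exact permutation p of 0.169 and 0.292 for r and 0.242 and 0.564 for rho. Without the 2 pigs farthest from the median of LIMK1, r for ROCK1 was -0.543 and 0.286, so that it rests on those pigs. For LIMK2 r was 0.686 and 0.359 (rho 0.486 and 0.0857), with exact permutation p of 0.128 and 0.506 for r and 0.356 and 0.919 for rho, and r was 0.637 and 0.690 without the 2 farthest pigs. For CFL2 r was -0.624 in the high and -0.849 in the low IMF group (Spearman's rho -0.600 in both), and the exact permutation p was 0.156 and 0.131 for r and 0.242 for both rho. Without the 2 pigs farthest from the median of LIMK1, r for CFL2 was -0.784 and -0.879. For CFL1 in low IMF pigs r was -0.676 (exact p = 0.00833) and rho -0.943 (exact p = 0.0167), and r was -0.959 without the 2 farthest pigs. The exact p did not follow the size of r, since CFL2 in low IMF pigs had a stronger r and a larger p. For CFL1 in high IMF pigs r was -0.562 (rho -0.486, exact p of 0.269 and 0.356) and 0.0956 without the 2 farthest pigs, so that it rests on those pigs. For SSH1 r was 0.201 in the high and 0.687 in the low IMF group, with exact permutation p of 0.772 and 0.0833. Without the 2 farthest pigs, r for SSH1 was 0.670 and -0.505, and r for ROCK2 was 0.749 and -0.858. The sign thus turned for SSH1 in low and for ROCK2 in high IMF pigs. After adjustment over the 16 relations, 0 held for either coefficient, and the smallest adjusted p was 0.133.

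The 5 genes whose pattern was most like that of LIMK1 were found by the lower of the 2 Pearson correlations within the groups, over 6 high and 6 low IMF pigs. They were RGS19 (0.948 in the high and 0.938 in the low IMF group), ZBED4 (0.922 and 0.944), MYO18B (0.917 and 0.927), OBSL1 (0.915 and 0.931) and SGSM3 (0.970 and 0.913). MYO18B and OBSL1 are proteins of the sarcomere, and RGS19 is a regulator of G protein signalling. They followed LIMK1 among the pigs of a group but not all between groups, since the log2FC was 0.52 for ZBED4 and -0.17 for RGS19. The values describe the best of all genes tested and carry no test.

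The other genes of the pathway were read from 6 lists, of 70 genes in all, of which 66 had a row and 62 were tested. Of these, 3 were higher and 4 lower in low IMF pigs at an unadjusted p of at most 0.05 in edgeR's test, which is 11.3% beside 10.4% of all genes. After adjustment 0 of them stayed, in edgeR's as in DESeq2's test. The median log2FC was -0.03. With all pigs, the share was thus close to the background. The 7 genes fell to 3 without pig 6 and to 1 without the 6 pigs whose Y counts went against the label, and numbered 11 without pig 2. The share of all genes past the threshold in those fits is not given here, so these numbers cannot be set against a background.

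The members of these lists that passed the unadjusted threshold came from 5 of the 6 lists. Among relatives and upstream kinases it was PAK4, a Cdc42 effector that phosphorylates LIM kinases, with a log2FC of 0.47 (edgeR, adjusted p = 0.441), while PAK2, the most counted gene of that list, had 0.10. Among regulators of LIM kinases and cofilin these were PARD3, a polarity protein, with 0.36 (edgeR, adjusted p = 0.419), and the 14-3-3 protein YWHAZ, with -0.35 (edgeR, adjusted p = 0.441). The chaperone HSP90AB1, the most counted of them, had -0.05.

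Among cofilin partners, GMFB, which acts on branched actin networks, had a log2FC of -0.71 (edgeR, adjusted p = 0.436). Its counts ran from 2677 to 9912 in the high and from 2374 to 3009 in the low IMF group, so that they overlapped. CAP2, the most counted partner and an aid to cofilin in taking filaments apart, had -0.02. Among other ROCK substrates and actin nucleators, ACTR3 of the Arp2/3 complex had -0.35 (edgeR, adjusted p = 0.452) and the formin DIAPH2 -0.20 (edgeR, adjusted p = 0.477), beside -0.07 for the myosin light chain gene MYL12A, the most counted. Among actins and the SRF axis it was MRTFB, a partner of the factor SRF that senses free actin, with 0.41 (edgeR, adjusted p = 0.452). ACTA1, the actin of skeletal muscle, had 0.29 (standard error 0.18).

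**Figure D5:**
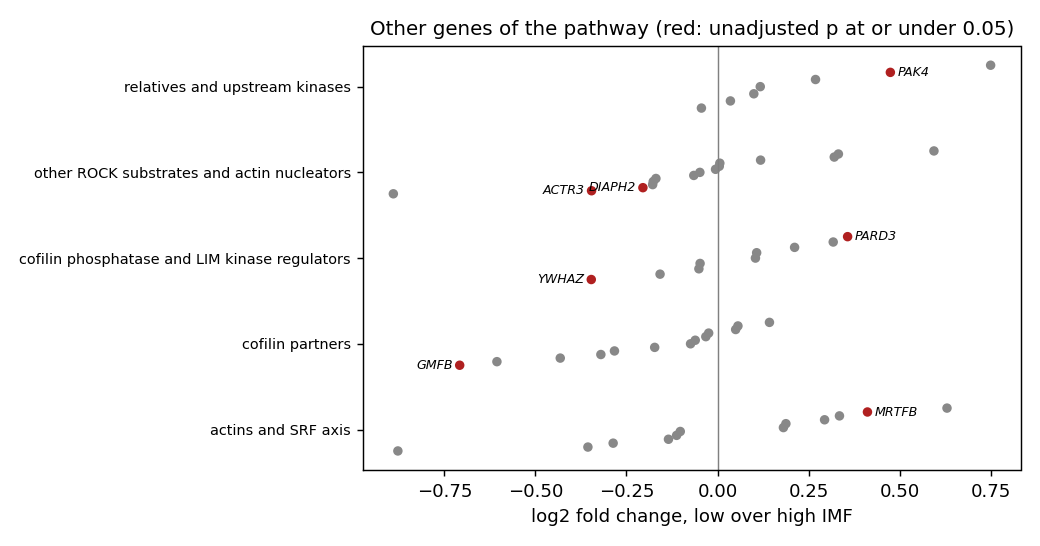
Log2 fold change, low over high IMF, of the other genes tested, in 5 of the 6 lists, with a point per gene and red for an unadjusted p of at most 0.05 in edgeR's test. The points of each list lie on both sides of 0, and the 7 red genes split into 3 above and 4 below.

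Markers of muscle and of other cell types were read beside these results. CKM, ACTA1 and DES, the 3 muscle markers of 8 with a row, summed to between 24853 and 37391 CPM in the high and between 25812 and 50868 in the low IMF group, and were at high level in every pig. Adipocyte markers had 6 of 7 genes tested, with summed levels of 150 to 280 CPM (median 198) in the high and 115 to 339 CPM (median 238) in the low IMF group. None of the 6 had an unadjusted p of at most 0.05, 4 had a log2FC above 0 and 2 below, and the median was 0.16. The log2FC was 0.33 for PLIN1, which coats fat droplets, 0.28 for LPL, 0.17 for CIDEC, 0.14 for LEP, -0.04 for FABP4 and -0.15 for ADIPOQ. The adipocyte markers thus did not separate the groups labelled by fat content, and LEP was at 0 in at least 1 low IMF pig. Slow fibre markers ranged from 899 to 2321 CPM in the high and from 555 to 3443 CPM in the low IMF group. Of 4 endothelial markers, CDH5 had the only unadjusted p of at most 0.05 (log2FC 0.55, edgeR, adjusted p = 0.383), and the list had sums of 92.0 to 123 CPM and 95.3 to 159 CPM. Of 5 connective tissue markers, 2 had a log2FC above 0 and 3 below, with a median of -0.07, and their summed level had a median of 1954 CPM in high and 2242 CPM in low IMF pigs. PDGFRA had -0.42 (edgeR, adjusted p = 0.441) and was the only one with an unadjusted p of at most 0.05, while the collagen genes COL1A1 and COL3A1 had 0.46 and 0.30. No other marker tested, of fast or slow fibres, smooth muscle, macrophages or nerve, had an unadjusted p of at most 0.05. The part of these cell types in the difference of LIMK1 was not tested.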

How the data were processed

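Per the labels and the study's methods, the authors prepared stranded libraries of polyadenylated RNA, sequenced read pairs, trimmed them with Trimmomatic, aligned them to Sscrofa11.1 with HISAT2 and counted reads per gene with HTSeq. The deposited values are whole-number counts per Ensembl gene, not normalized. The annotation release and the strand option are not given in the sources used here. Symbols came from a table of gene names, which named 14857 genes.

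The members and lists were chosen with earlier results of these data known. Genes kept by filterByExpr were normalized by TMM and tested with edgeR 4.0.16 (quasi-likelihood test, no covariates, with 10 residual degrees of freedom), with Benjamini-Hochberg adjustment. DESeq2 1.42.0 and limma 3.58.1 were alternatives (R 4.3.3), and the scripts were tested on simulated data. The 95% intervals used the residual degrees of freedom alone. Permutation tests were exact and two-sided, with 924 arrangements of groups or 720 pairings (scipy 1.17.1) on log2 CPM with a prior count of 2. Lengths per kb and positions are those of RefSeq exons on Sscrofa11.1. Because SSH2 had no row, 8 ratios and 16 relations were computed. Genes named are all members, list genes with an unadjusted p of at most 0.05, the most counted gene of each list and the 5 genes most like LIMK1. DSTN and the markers named were added for context. The result of 1 list is not reported here. Each pig is a separate animal.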

Additional observations from a re-analysis of the deposited data

Results flagged for a closer look

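Of the 18 sets of 6 pigs formed by the 9 members and the 2 groups, 2 held a pig that stood apart from the others of its group. The rule used is one that chance meets in about 1 of 20 sets of normally distributed values. Whether these counts follow that distribution was not tested, and the share of all genes that meet the rule is not given here. CFL1 had 6275 TMM-normalized counts in pig 6 of the high IMF group, where the other 5 pigs had between 2977 and 3552. CFL2 had 40330 TMM-normalized counts in pig 11 of the low IMF group, where the next highest pig had 32559. Pig 6 also had the highest CFL2 and the lowest LIMK1 of the high IMF group, and pig 11 had the lowest LIMK1 of the low IMF group and the highest PAK1 of all pigs.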

How the results depend on the processing

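The call of LIMK1 depended on the test. DESeq2's Wald test gave it an adjusted p of 0.00283 at a log2FC of 0.73 and called 1 member, and it kept that call with each pig left out in turn, with adjusted p from 2.07e-05 to 0.0198. In edgeR's test the adjusted p stayed between 0.135 and 0.398 with each pig left out, at a log2FC from 0.65 without pig 6 to 0.83 without pig 1. EdgeR's test, and not the Wald test, was also run without the 6 pigs whose Y counts went against the label. In it, 1 member (LIMK2) and 1 list gene had an unadjusted p of at most 0.05. The share of all genes in that smaller fit is not given here, so neither count can be set against a background. The log2FC of LIMK1 was 0.42 there, and that of SSH1 turned to -0.13. Limma-voom turned that of PAK1 to -0.043. With single pigs left out, the log2FC ranged from -0.00117 to 0.30 for SSH1, from -0.088 to 0.22 for SSH3 and from -0.27 to 0.35 for PAK1 in edgeR's test, and from -0.083 to 0.23 for SSH3 and from -0.26 to 0.36 for PAK1 in the Wald test. The number of list genes past the unadjusted threshold ranged from 3 to 11, and the share of all genes past it in those fits is not given here. The cause of these changes was not tested. The ratios at an adjusted p of at most 0.05 over the 8 ratios numbered 4 or 5 with single pigs left out and 4 by ranks, and the ratio to ROCK2 held in 2 of 12 such fits. They were not always the same ratios. The ratio to SSH3 passed without pig 2 (exact permutation, adjusted p = 0.0139) and that to SSH1 without pig 4 (exact permutation, adjusted p = 0.0208), where that to ROCK2 did not. The share of all genes in those fits is not given here. Sex by Y chromosome counts as a covariate was added after seeing the data and left LIMK1 at a log2FC of 0.74 (adjusted p = 0.165, edgeR). Each pig had at least 131048805 counts.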

Other observations

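PAK1, whose spread among pigs was the widest of the members, was set beside the summed slow fibre markers (TNNI1, TNNT1, TNNC1 and MYL3) after its values were seen, together with the other 8 members, in 18 relations within groups of 6 pigs. In high IMF pigs PAK1 had a Pearson's r of 0.971 (exact permutation p = 0.00556, adjusted p = 0.05) and a Spearman's rho of 0.943 (exact p = 0.0167, adjusted p = 0.15), and r was 0.894 without the 2 pigs farthest from the median of the markers. In low IMF pigs r was 0.579 and rho 0.314, with exact p of 0.233 and 0.564. LIMK2 in high IMF pigs had an r of -0.957 and a rho of -1.0, each with an exact p of 0.00278 and an adjusted p of 0.05, and an r of -0.948 without the 2 farthest pigs. In low IMF pigs its r was -0.289 and its rho -0.0857, with exact p of 0.625 and 0.919. The adjustment covers these 18 relations and not the choice of this marker list. The share of all genes with such a relation to the markers is not given here. The difference between the groups in these relations was not tested.

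The 5 named genes most like PAK1 within both groups, also picked after the values were seen, were UNG (r of 0.922 in the high and 0.898 in the low IMF group), MYL12A (0.852 and 0.955), ALG8 (0.837 and 0.958), GPRASP1 (0.915 and 0.819) and ENTPD5 (0.840 and 0.802). Their log2FC between groups ran from -0.19 to 0.21.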
